A study of Rattus norvegicus with 12 samples.

Results

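The genes described here encode the enzymes that oxidize acetyl units in the citrate cycle, bring pyruvate into it and break down the branched-chain amino acids leucine, isoleucine and valine. They were the rows of the deposited expression table whose gene name was on a list of 38 names, and 36 of the 32545 genes in the table carried one. Idh3b and Pdha1 had no row under those names and were not analysed here. RNA was sequenced from the free wall of the left (LV) or right ventricle (RV) of Sprague-Dawley rats at P7. The rats had received an aorta-to-vena cava fistula by needle puncture, which puts a volume load on the heart (VO), or a sham operation, in each case at P1. With 3 libraries each, the groups were sham LV, VO LV, sham RV and VO RV. The labels name no sex, litter or animal, so it is not known whether an LV and an RV library came from 1 heart, and the p values measure the spread between libraries. Free wall is a mixture of cells, and fewer cells of a type cannot be told apart from less RNA per cell.

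As background, the citrate cycle of the mitochondrial matrix joins acetyl-CoA to oxaloacetate and oxidizes the product back to oxaloacetate, passing electrons to the respiratory chain. Pyruvate enters through the pyruvate dehydrogenase complex, and the carbon skeletons of branched-chain amino acids (BCAA) enter as acetyl-CoA or succinyl-CoA after a transamination and a dehydrogenase complex of related build. The newborn heart is known to move from glycolysis towards mitochondrial oxidation in the days around P7.

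The levels are FPKM (fragments per kilobase of transcript, scaled to each library's total) as the authors deposited them. The tests used log2 of FPKM, scaled by a size factor from the median of ratios, plus 0.5, and the 13910 genes with a mean of at least 0.5 FPKM, among them these 36 of 36, entered 1 limma model of the 4 groups. A gene was called when its Benjamini-Hochberg adjusted p over the 13910 genes was under 0.05 and its fold change over 1.3. Fold changes are on the log2(FPKM + 0.5) scale. The difference in response is the LV fold change for VO against sham minus that of the RV.

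The reads on genes, recovered from the FPKM and gene lengths, numbered 14121713 to 16871371 per library, and 17128 to 17807 genes were above 0. Several properties of the libraries followed the groups in part. In 4 of the 12 libraries, the most similar library was of the same group. The slope of a library's log2 deviation on gene length ran from -0.20 to -0.09 per 10-fold length in sham LV, from 0.0051 to 0.15 in VO LV, from -0.002 to 0.17 in sham RV and from -0.11 to 0.12 in VO RV. The summed FPKM of 5 Y-linked genes was 0 in the 3 VO LV libraries, and was over 50 in 2 of 3 sham LV, 2 of 3 sham RV and 1 of 3 VO RV libraries, so in the LV the level of Y-linked genes and VO were partly confounded. VO RV library 2 had a sum of 1522 FPKM over 4 atrial markers against 148 to 440 in the other 11 libraries. It also had 8999 FPKM over 7 cardiomyocyte markers against 11347 to 13277, and 4611 FPKM over 6 fibroblast markers against 1934 to 3439. Sham RV library 1 came next in each, with 440, 11347 and 3439 FPKM. The atrial markers Sln and Bmp10 had 388 and 72.4 FPKM in VO RV library 2 and 97.7 and 12.6 in sham RV library 1. Elsewhere they were at most 0.678 and 0.152 FPKM. All 7 cardiomyocyte markers were above 0 in every library, and their summed level was 13135 to 13277 FPKM in sham LV, 12425 to 13230 in VO LV, 11347 to 12919 in sham RV and 8999 to 12584 in VO RV.

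The promoters of 5 genes are shown first because these genes were called in the difference in response to VO between the ventricles. Those calls were not stable to the choice of libraries, as described below. Of the 36 genes, 32 had a window in the RefSeq table (build GRCr8), which covers 250 bases before and 50 after the start. The 250 bases before the start are given for Cs (chr7:1348139-1348388), Ogdh (chr14:85363781-85364030), Sdha (chr1:30764303-30764552) and Pck2 (chr15:32997603-32997852) on the plus strand and for Dlat (chr8:59900819-59901068) on the minus strand, 5′ to 3′, with matches to the motifs searched below in capitals.
Cs: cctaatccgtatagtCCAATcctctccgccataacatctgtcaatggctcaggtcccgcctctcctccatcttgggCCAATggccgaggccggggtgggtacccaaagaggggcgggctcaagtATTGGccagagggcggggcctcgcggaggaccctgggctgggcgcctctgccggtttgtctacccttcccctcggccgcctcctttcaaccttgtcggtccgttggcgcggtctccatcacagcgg
Ogdh: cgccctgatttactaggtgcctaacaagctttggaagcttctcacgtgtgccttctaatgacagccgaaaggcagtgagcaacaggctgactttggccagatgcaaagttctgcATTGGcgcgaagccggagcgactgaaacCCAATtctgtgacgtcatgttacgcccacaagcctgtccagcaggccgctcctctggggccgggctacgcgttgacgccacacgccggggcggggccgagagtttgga
Sdha: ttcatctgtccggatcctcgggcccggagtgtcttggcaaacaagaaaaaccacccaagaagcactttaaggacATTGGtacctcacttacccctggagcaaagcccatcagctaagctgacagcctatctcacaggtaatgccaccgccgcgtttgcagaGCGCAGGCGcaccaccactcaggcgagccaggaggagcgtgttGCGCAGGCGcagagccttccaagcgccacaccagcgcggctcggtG
Pck2: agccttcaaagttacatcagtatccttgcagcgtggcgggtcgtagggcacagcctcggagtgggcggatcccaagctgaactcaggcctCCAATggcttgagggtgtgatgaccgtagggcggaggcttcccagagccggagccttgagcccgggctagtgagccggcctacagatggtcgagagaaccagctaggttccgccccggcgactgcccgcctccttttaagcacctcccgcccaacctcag
Dlat: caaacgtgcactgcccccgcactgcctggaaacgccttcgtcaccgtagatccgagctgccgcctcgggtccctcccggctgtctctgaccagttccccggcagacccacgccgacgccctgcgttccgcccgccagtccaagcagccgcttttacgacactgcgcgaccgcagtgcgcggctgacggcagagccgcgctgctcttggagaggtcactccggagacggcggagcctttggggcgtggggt

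Exact matches on either strand were counted for CCAAT (NF-Y), GCGCANGCG (NRF1), AAGATGGCG (YY1) and TCAAGGTCA (ERR) over the 300 bases, with overlapping matches of different motifs each counted. CCAAT was present in 17 of the 32 windows (53.1%) and in 37.5% of all 33469 windows. The Cs window held 3 CCAAT matches, starting 235, 174 and 126 bases before the start, the Ogdh window held 2, at 136 and 108 bases, and the Pck2 window held 1, at 160 bases. GCGCANGCG was present in 5 of 32 windows (15.6%, against 5.8% of all windows), namely those of Dld, Hibadh, Pccb, Sdha and Sucla2. The Sdha window held 3 such matches, at 89, 46 and 1 bases before the start, the last of which runs past the printed bases, and 1 CCAAT match at 176 bases. AAGATGGCG was found in 3 (9.38% against 1.73%; Idh3g, Pdhx and Suclg2) and TCAAGGTCA in 1 (3.12% against 0.433%; Sdhd). The Dlat window held none of the 4. GC content of the 250 bases was 60.8% at the median of the 32 and 51.2% at the median of all windows, and its part in these shares was not tested.

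The genes spanned a wide range of levels per length. Idh2, the mitochondrial NADP-dependent isocitrate dehydrogenase, had the highest mean over the 12 libraries (763 FPKM), followed by Mdh1, the cytosolic malate dehydrogenase (681 FPKM). The lowest were Pc, pyruvate carboxylase (2.48 FPKM), and Pck2, the mitochondrial phosphoenolpyruvate carboxykinase (10.3 FPKM). The enzymes at the end of the cycle were abundant, with Mdh2, the mitochondrial malate dehydrogenase, at 555 FPKM and Fh, fumarase, at 131 FPKM. The 4 subunits of succinate dehydrogenase lay close to each other at 386 (Sdhd), 335 (Sdhc), 293 (Sdhb) and 239 FPKM (Sdha).

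At the entry of the cycle, Cs, citrate synthase, had a mean of 224 FPKM. Of the NAD-dependent isocitrate dehydrogenase, Idh3g had 194 and Idh3a 85.4 FPKM, while the cytosolic enzymes Idh1 and Aco1 had 19.2 and 18.5 FPKM. The FPKM of Idh2 was 29.1 to 47.9 times that of Idh1 within a library. In the 2-oxoglutarate dehydrogenase complex, the core Dlst had 129 FPKM, Dld, the subunit shared with the pyruvate and BCAA complexes, had 97.7, and Ogdh, the subunit that binds the substrate, had 30.1. Suclg1, the subunit shared by both forms of succinyl-CoA ligase, had 142 FPKM, the ATP-forming partner Sucla2 had 114 and the GTP-forming partner Suclg2 had 67. In the pyruvate dehydrogenase complex, Pdhb had 134, Dlat 62.2 and Pdhx 21.5 FPKM.

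The genes of BCAA breakdown lay between 11.2 and 61.8 FPKM. Bckdha and Bckdhb, the decarboxylase subunits of the branched-chain dehydrogenase complex, had 53.6 and 48.2 FPKM, its core Dbt had 11.2, the kinase that switches the complex off, Bckdk, had 53.3, and the mitochondrial transaminase Bcat2 had 38.3. In the leucine branch, Ivd, isovaleryl-CoA dehydrogenase, had 61.8 FPKM, and Mccc2 and Mccc1, the subunits of methylcrotonyl-CoA carboxylase, had 28.6 and 14.7. In the valine branch, Hibadh had 47.9 and Hibch 20.4 FPKM. Pccb and Pcca, which carry the propionyl-CoA made from isoleucine and valine on towards succinyl-CoA, had 48.6 and 17.8 FPKM. The lowest number of reads on any of the 36 genes in a library was 113, for Pc.

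The response of the LV to VO was compared first. No member was called, beside 0.0935% of all genes tested (13 genes), and most of the genes had higher means in VO LV. The log2 fold change was above 0 in 33 of 36, beside 47.2% of all genes, with a median of 0.30 against -0.02 over all genes. At an unadjusted p under 0.05 and a fold change over 1.3, 12 were higher in VO LV, beside 9.27% of all genes, and 1 was lower, beside 6.44%. The count of 12 was 6 without sham LV library 2 and 18 without sham LV library 3. For 22 of the 36, the 3 VO LV libraries lay above the 3 sham LV libraries, beside 16.7% of all genes. For a gene with such a separation the exact two-sided permutation p was 0.1, the smallest that 3 against 3 libraries can give.

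The largest LV values were those of Cs and Ogdh. Cs, which joins acetyl-CoA to oxaloacetate, had 159, 111 and 182 FPKM in sham LV and 273, 257 and 334 FPKM in VO LV. The lowest VO library was above the highest sham library, and the log2 fold change was 0.95 (SE 0.20), 1.93-fold, with a limma adjusted p of 0.0540. Ogdh had 11.6, 7.88 and 20.9 FPKM in sham LV and 35.4, 38.9 and 63.8 FPKM in VO LV. These groups did not overlap, and the log2 fold change was 1.80 (SE 0.41), 3.48-fold, with a limma adjusted p of 0.0582. Sdha, the flavoprotein subunit of succinate dehydrogenase, had 199, 163 and 226 FPKM in sham LV and 280, 271 and 309 in VO LV, a log2 fold change of 0.56 (SE 0.14) with a limma adjusted p of 0.0701.

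Pcca, the biotin-carrying subunit of propionyl-CoA carboxylase, had 14.8, 11.1 and 19.6 FPKM in sham LV and 22.5, 20.4 and 25.8 in VO LV. The VO libraries were the higher ones by a log2 fold change of 0.61 (SE 0.17, limma adjusted p of 0.0793). Pck2, which makes phosphoenolpyruvate from oxaloacetate, went the other way, with 13.3, 15.7 and 10.4 FPKM in sham LV and 9.12, 8.85 and 7.76 in VO LV. Its VO LV libraries lay below the sham LV libraries, with a log2 fold change of -0.57 (SE 0.14, limma adjusted p of 0.0653).

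By role, the 3 genes of the leucine branch were among those higher at the unadjusted level, with log2 fold changes of 0.60 (Ivd), 0.53 (Mccc2) and 0.41 (Mccc1). So were Hibadh (0.55) and Pcca of the 4 genes of the valine branch and propionyl-CoA carboxylase, Dbt (0.55) of the 5 genes of BCAA entry, Dlat (0.63) of the 3 genes of the pyruvate dehydrogenase complex, Suclg2 (0.48) of the 3 of succinyl-CoA ligase, and Idh3a (0.46) with Cs of the 6 from citrate synthase to isocitrate dehydrogenase. Without sham LV library 2, Idh3a had 0.20, Suclg2 0.26 and Hibadh 0.36. Of fumarase and the malate dehydrogenases, 0 of 3 reached that level, with log2 fold changes of 0.18 (Fh), 0.16 (Mdh1) and 0.12 (Mdh2). Within succinate dehydrogenase, Sdhb (0.04), Sdhc (0.04) and Sdhd (0.01) had values near 0, each with a 95% confidence interval of the log2 fold change between -0.26 and 0.30, beside 0.56 for Sdha.

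**Figure D1:**
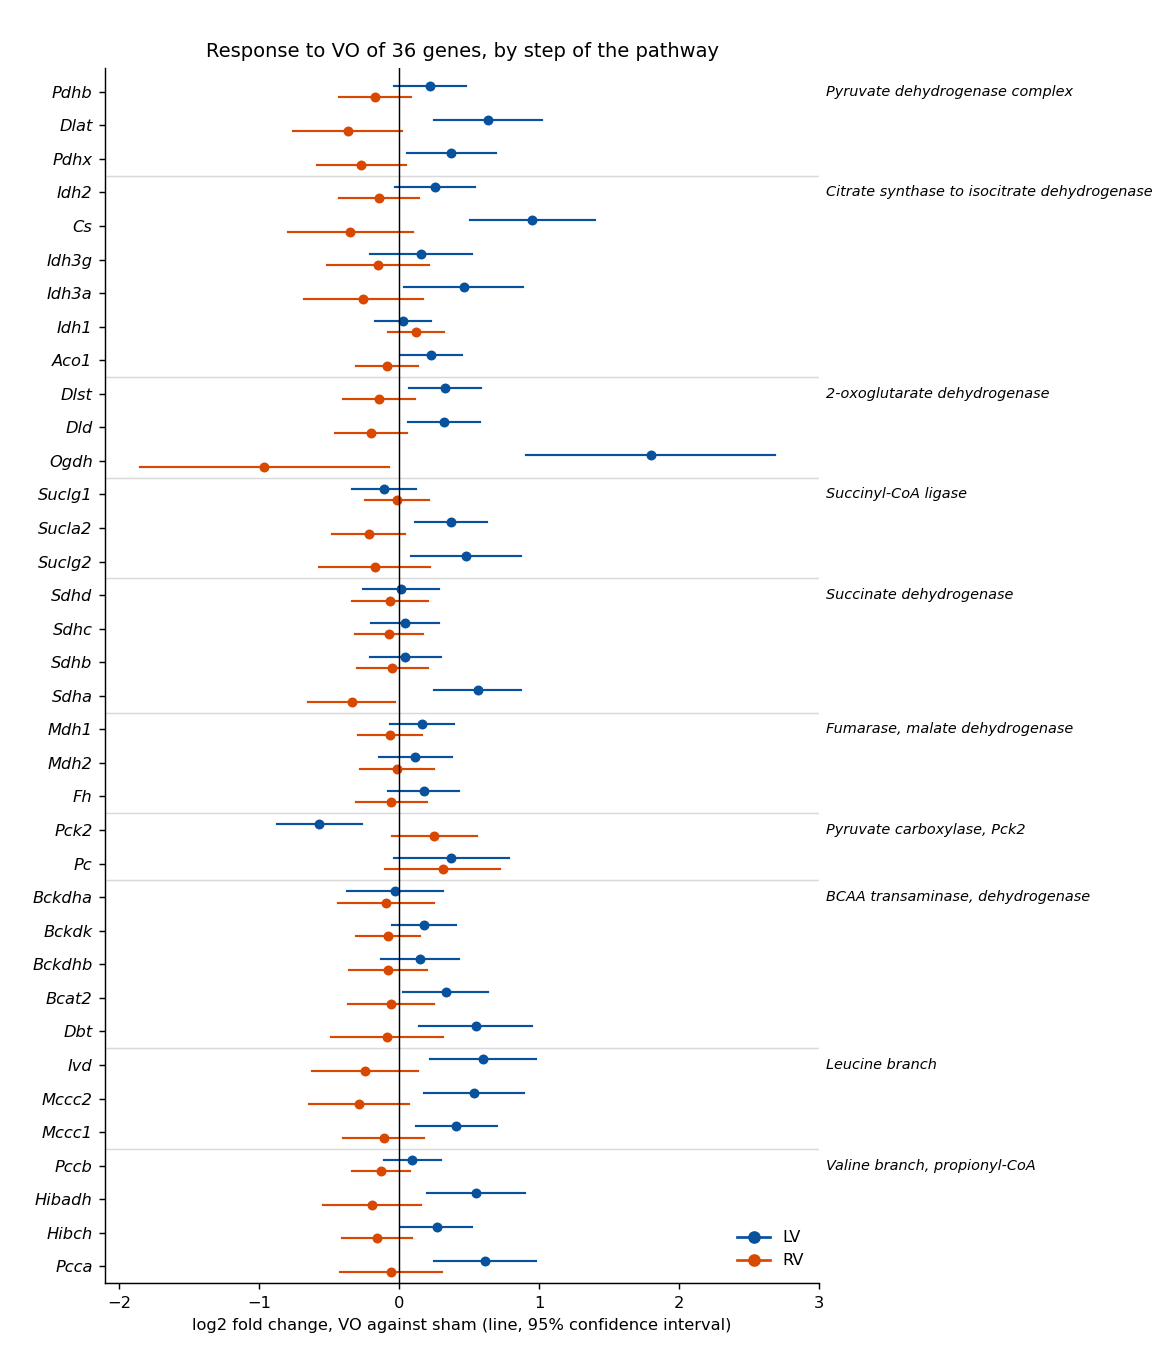
The log2 fold change for VO against sham on the x axis is shown for the 36 genes on the y axis, grouped by step, with the LV in blue and the RV in orange and lines for the 95% confidence interval of the limma model. LV values lie above 0 for 33 of 36 genes and RV values for 3 of 36, with the widest separation for Ogdh (1.80 and -0.96).

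In the RV, most of the genes had lower levels in VO than in sham. No member was called, beside 0% of all genes (0 of 13910), and the smallest adjusted p of any of the 36 was 0.579. At the unadjusted level 0 were higher, beside 1.85% of all genes, and 1, Ogdh, was lower, beside 3.06%, a count that was 0 without VO RV library 3 and 7 without VO RV library 1. The log2 fold change was above 0 in 3 of 36 (Pck2 0.25, Pc 0.31 and Idh1 0.12), beside 50.6% of all genes, and the median was -0.12 against 0.003 over all genes. For 3 genes (Sdha, Ogdh and Dlat) the VO RV libraries lay below the sham RV libraries, beside 6.87% of all genes.

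Ogdh had 53.0, 37.4 and 29.2 FPKM in sham RV and 24.5, 27.9 and 10.9 in VO RV, a log2 fold change of -0.96 (SE 0.41) with a limma adjusted p of 0.579, which was -0.55 without VO RV library 3. Sdha had 269, 255 and 268 FPKM in sham RV and 253, 201 and 177 in VO RV, a log2 fold change of -0.34 (SE 0.14). Dlat, the acetyl-transferring core of the pyruvate dehydrogenase complex, had 74.9, 70.9 and 70.0 FPKM in sham RV and 66.7, 56.7 and 45.2 in VO RV, a log2 fold change of -0.37 (SE 0.18). In these 3 genes the VO libraries were the lower ones, with library 3 lowest.

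The sign in the RV rested on VO RV libraries 2 and 3. The median deviation of the 36 genes from their 12-library means was 0.14 in VO RV library 1, -0.20 in library 2 and -0.16 in library 3, while the sham RV libraries lay between -0.02 and 0.11. Without VO RV library 2, the one with the highest atrial markers, the log2 fold change was above 0 in 15 of 36 genes with a median of -0.064. Without libraries 2 and 3, which leaves 1 library whose spread is taken from the other groups, it was above 0 in 29 of 36 with a median of 0.079.

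**Figure D2:**
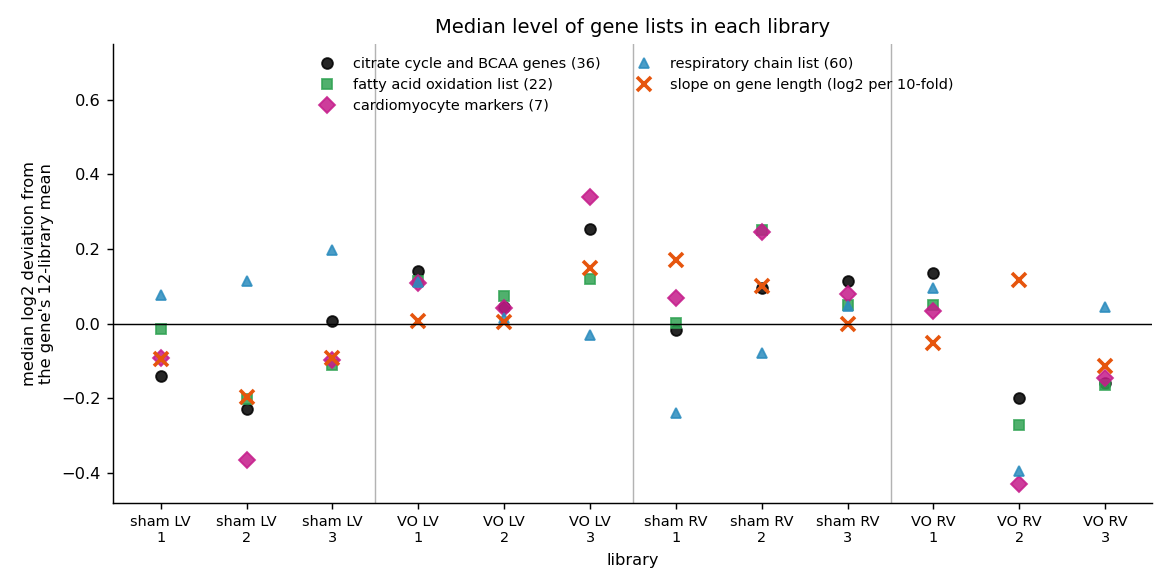
For each of the 12 libraries on the x axis, the y axis gives the median log2 deviation of 4 gene lists from each gene's mean over the libraries, and crosses give the library's slope on gene length (log2 per 10-fold). The citrate cycle and BCAA genes (black) are lowest in sham LV library 2 (-0.23) and VO RV library 2 (-0.20) and highest in VO LV library 3 (0.25), and the respiratory chain list (blue) is above 0 in the 3 sham LV libraries.

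Between the ventricles of sham rats, no member was called, beside 3.85% of all genes (536 genes). The log2 difference, LV minus RV, was above 0 in 8 of 36, beside 51.6% of all genes, with a median of -0.18. It was above 0 in 12 without sham LV library 2 and in 4 without sham LV library 3. At the unadjusted level 8 were lower in sham LV, beside 9.63% of all genes, and 1, Pck2, was higher, beside 8.19%. The count of 8 was 3 without sham LV library 2 and 13 without sham LV library 3. This comparison shares the sham LV libraries with the LV response, and the sham RV libraries with the RV response, so the values are given side by side and are not independent.

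Ogdh was 0.33 times as high in sham LV as in sham RV (log2 difference -1.60, SE 0.41, limma adjusted p of 0.0508), from the sham values given above, whose highest LV library (20.9 FPKM) lay below the lowest RV library (29.2 FPKM). Cs had 260, 262 and 237 FPKM in sham RV, above its 3 sham LV values, with a log2 difference of -0.77 (SE 0.20, limma adjusted p of 0.0557). Dlat had 43.1, 39.6 and 59.8 FPKM in sham LV, below its sham RV values, with a log2 difference of -0.62 (SE 0.18, limma adjusted p of 0.0682). Mccc2 had 23.1, 17.6 and 27.2 FPKM in sham LV and 30.0, 32.3 and 35.3 in sham RV, and was lower in each LV library (log2 difference -0.53, SE 0.16, limma adjusted p of 0.0794). Pck2 had 8.49, 8.60 and 9.19 FPKM in sham RV, below its sham LV values, with a log2 difference of 0.54 (SE 0.14, limma adjusted p of 0.0519).

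Between the ventricles of VO rats, no member was called, beside 0.00719% of all genes (1 gene). The log2 difference, LV minus RV, was above 0 in 33 of 36, beside 51% of all genes, with a median of 0.23, and 5 were higher at the unadjusted level, beside 3.85%. These were Sdha (0.46, SE 0.14), Ivd (0.52, SE 0.17), Pcca (0.48, SE 0.17), Ogdh (1.16, SE 0.41) and Cs (0.53, SE 0.20), with limma adjusted p values of 0.303 to 0.377. The count of 5 was 0 without VO RV library 3, where Ogdh had 0.75 and Cs 0.32, and 15 without VO RV library 1. Ivd, which begins the leucine-specific part of BCAA breakdown, had 79.8, 71.9 and 80.3 FPKM in VO LV and 73.0, 47.4 and 44.4 in VO RV. Its groups overlapped, since VO RV library 1 lay above VO LV library 2. Pcca had 17.6, 16.5 and 14.7 FPKM in VO RV, below its VO LV values. Without VO RV libraries 2 and 3, which leaves 1 library whose spread is taken from the other groups, the log2 difference was above 0 in 20 of 36 genes, with a median of 0.0066.

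The response to VO was called as different between the ventricles for 5 of the 36 genes, beside 4.19% of all genes (583 genes). The difference, LV response minus RV response, was above 0 in 33 of 36 genes, beside 46.4% of all genes, with a median log2 value of 0.40 against -0.04 over all genes. At the unadjusted level 18 were higher, beside 13.1% of all genes, and 1 was lower, beside 9.94%. The 5 genes called were Ogdh, Cs, Sdha, Dlat and Pck2. They act at different points: the entry of pyruvate, the citrate synthase step, the 2-oxoglutarate step, the succinate step and the removal of oxaloacetate.

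Ogdh (ENSRNOG00000005130, chromosome 14, 86414949 to 86613327, plus strand, 3583 bases of transcript) had the largest difference, a log2 value of 2.76 (SE 0.57, limma adjusted p of 0.0322). Its means were 13.5 ± 6.71 FPKM in sham LV, 46.0 ± 15.5 in VO LV, 39.9 ± 12.1 in sham RV and 21.1 ± 9.02 in VO RV (SD, n = 3). Cs (ENSRNOG00000023520, chromosome 7, 2752680 to 2778963, plus strand, 1498 bases) had a difference of 1.3 (SE 0.29, limma adjusted p of 0.0369). It had 240, 218 and 148 FPKM in VO RV, so that the groups ordered as sham LV (151 ± 36.1), VO RV (202 ± 48), sham RV (253 ± 14.3) and VO LV (288 ± 40.8).

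Sdha (ENSRNOG00000013331, chromosome 1, 31545631 to 31570601, plus strand, 2277 bases) had a difference of 0.90 (SE 0.20, limma adjusted p of 0.0371). Dlat (ENSRNOG00000009994, chromosome 8, 55062551 to 55087832, minus strand, 2600 bases) had 63.8, 68.5 and 87.6 FPKM in VO LV, and its difference was 1.00 (SE 0.25, limma adjusted p of 0.0491). Both were lowest in sham LV and VO RV and highest in VO LV. Pck2 (ENSRNOG00000018536, chromosome 15, 34216833 to 34224193, plus strand, 1926 bases) had the reverse order, with 10.7, 9.32 and 11.6 FPKM in VO RV, and a difference of -0.82 (SE 0.20, limma adjusted p of 0.0445). Positions are as the deposited table lists them. Its genome build is not given in the sources used here, and they are not comparable with the GRCr8 positions of the promoters. For these 5 genes the mean of VO LV lay nearer to sham RV than to sham LV. The genes were picked by a difference built from these same groups, so this order follows in part from the selection.

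**Figure D3:**
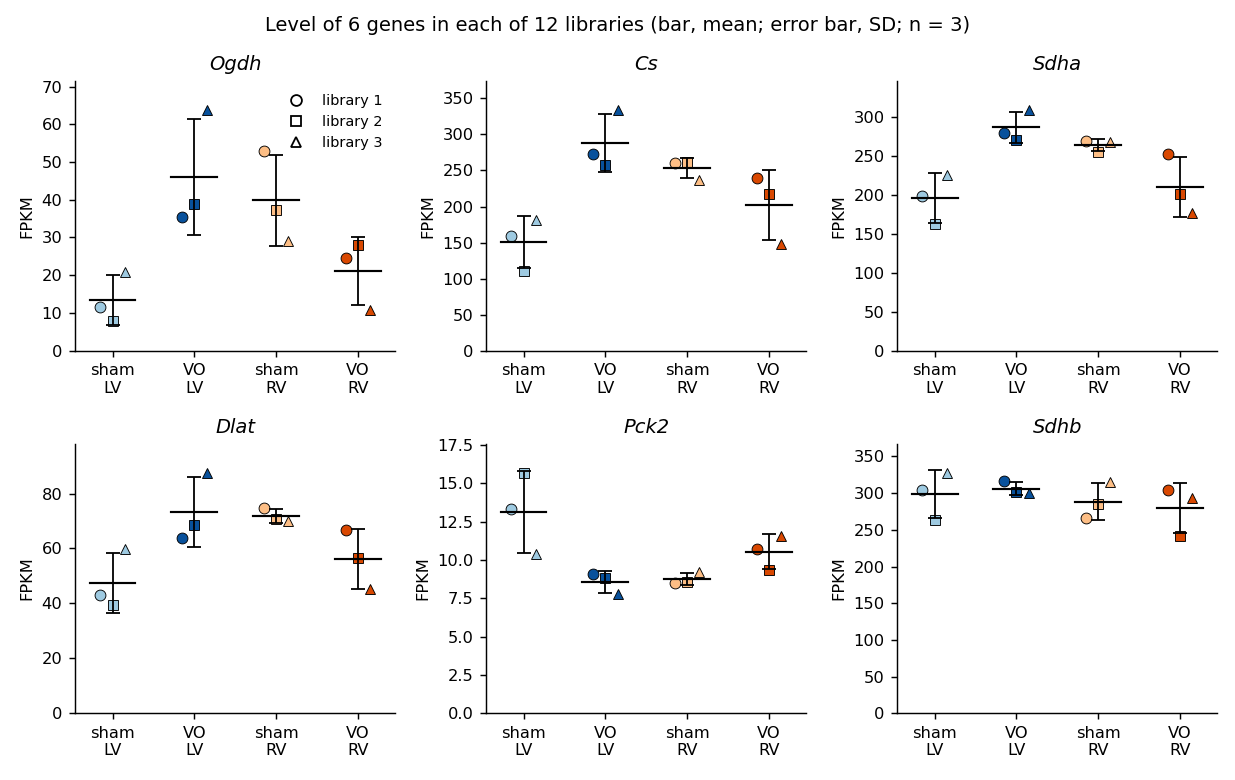
FPKM on the y axis, from 0, in each library of the 4 groups on the x axis, for the 5 genes called in the difference of responses and for Sdhb, a partner of Sdha, with bars for the mean and error bars for the SD of 3 libraries. Ogdh, Cs, Sdha and Dlat are higher in each VO LV library than in each sham LV library and Pck2 is lower, while Sdhb lies between 241 and 328 FPKM in the 12 libraries.

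These 5 calls were not stable to the choice of libraries. Leaving out sham LV library 1 or 2, sham RV library 1 or 2, VO LV library 2 or 3, or VO RV library 3 left 0 of the 36 genes called, VO LV library 1 left 1 (Ogdh), sham RV library 3 left 2 (Cs and Ogdh) and VO RV library 2 left 4, while leaving out sham LV library 3 gave 9 and VO RV library 1 gave 14. In the fits without 1 library that gave 0, between 0 and 111 of all genes were called. The log2 difference of Ogdh lay between 1.2 and 3.13 over the alternatives and that of Pck2 between -0.97 and -0.40, with limma adjusted p values of up to 0.630 and 0.632.

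The levels of the called genes moved with the gene-length slope of the libraries. Over the 12 libraries, the log2 level of Ogdh had a Pearson r of 0.90 with that slope (Spearman rho 0.90, permutation p of 6e-05 and 0.00022, adjusted p of 0.00144 and 0.00396 over 72 relations, 100000 resamples), and r was 0.83 without the 2 libraries farthest from the median slope. The r for Cs was 0.84 (adjusted permutation p of 0.00768, 0.79 without those libraries), for Dlat 0.80 (0.00878, 0.70) and for Sdha 0.69 (0.0389, 0.53). For Pck2 the r was -0.88 (adjusted permutation p of 0.00144, -0.84). Aco1, which was not called, had an r of 0.94 (0.00144, 0.95). In all, 10 of the 36 genes had an adjusted permutation p of r under 0.05, 9 with a positive r. The 12 libraries come from 4 groups and may share rats, so these values hold the group differences too, and no r is given within groups of 3. The median length of the 36 genes was 2085.5 bases, against 2165.5 over all genes tested. Among the 36, however, fold change varied with gene length. The Spearman rho was 0.52 for the LV response, -0.50 for the sham comparison and 0.41 for the difference of responses. For the VO comparison it was 0.30, and for the RV response -0.31. No p value was computed for these, and the part of length in the fold changes was not tested further than below. Removing each library's trend on gene length left 4 of the 5 genes called, without Dlat, with 393 of all genes called. With the slope as a covariate, chosen after seeing the data, 0 genes were called. The difference was then 1.2 for Ogdh, 0.69 for Cs, 0.69 for Sdha, 0.58 for Dlat and -0.40 for Pck2, and the median of the 36 genes was 0.42.

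**Figure D4:**
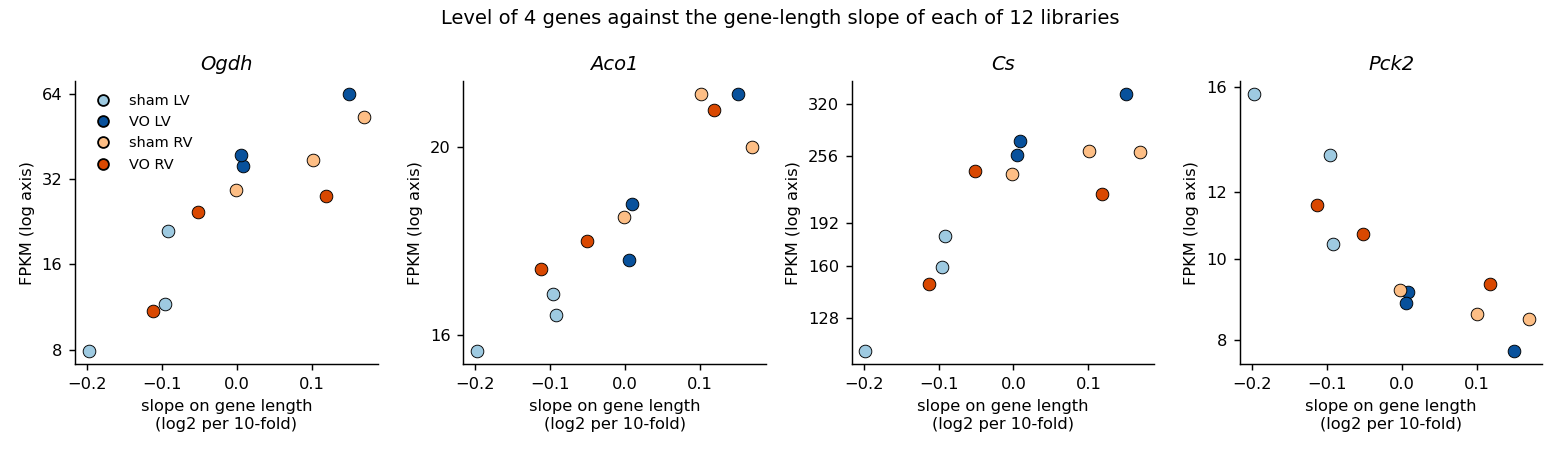
FPKM on a log y axis against the slope of each library on gene length (x axis, log2 per 10-fold length) for Ogdh, Aco1, Cs and Pck2, 1 point for each of the 12 libraries, coloured by group. Ogdh, Aco1 and Cs are higher in libraries with a larger slope and Pck2 is lower, with sham LV library 2 at the far left (slope -0.20) and sham RV library 1 at the far right (0.17).

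The levels also moved with those of the cardiomyocyte markers. The mean log2 level of the 7 markers had a Pearson r with an adjusted permutation p under 0.05 for 21 of the 36 genes, each positive, with a median r of 0.68 over the 36. The r was 0.82 for Sdha (adjusted permutation p of 0.00768), 0.71 for Dlat (0.0303), 0.68 for Cs (0.0389) and 0.66 for Ogdh (0.0472), and -0.59 for Pck2 (0.072). Without VO RV library 2 and VO LV library 3, the farthest from the median marker level, these were 0.89, 0.86, 0.92, 0.91 and -0.89. Of the markers, 5 of 7 had a higher mean in VO LV than in sham LV, and Tnnt2 and Tnni3 were lower, with a median log2 fold change of 0.45 for the 7 in the LV and -0.25 in the RV. Their mean summed FPKM was not higher in VO LV (12874) than in sham LV (13207). The VO LV libraries lay above the sham LV libraries for 4 of the 7 and below them for 2. Whether the marker mean follows gene length or VO itself was not tested, so the covariate fit below cannot separate these from the mixture of cells. With the marker mean as a covariate, chosen after seeing the data, 0 genes were called in the difference of responses and the median of the 36 genes was 0.083 in the LV, 0.13 in the RV and -0.068 for their difference. The number of the 36 genes above 0 was then 23 in the LV, 30 in the RV and 14 for the difference. Between the sham ventricles it was 17 with a median of -0.0068, and between the VO ventricles 11 with a median of -0.065. The 5 genes kept their sign, with a difference of 2.32 for Ogdh, 0.79 for Cs, 0.49 for Dlat, 0.41 for Sdha and -0.72 for Pck2. With the Y-linked genes as a covariate, the LV median was 0.19 and 0 of the 36 genes were called in the difference, with 2.58 for Ogdh, 1.2 for Cs, 0.91 for Dlat, 0.83 for Sdha and -0.76 for Pck2. Markers of other cells moved too. In the LV response, 3 of 3 erythroid markers (median -0.47), 3 of 3 endothelial markers (-0.21) and 5 of 6 fibroblast markers (-0.20) had log2 fold changes below 0, none at the unadjusted level. Of 6 fibroblast markers, 5 had lower levels in VO LV than in VO RV, 4 of them at the unadjusted level, with a median log2 difference of -0.55. Of 5 macrophage markers, 5 had a negative difference of responses (median -0.71), of which 1 was called, and 3 were higher in VO RV than in sham RV at the unadjusted level (median 0.53). Of 4 smooth muscle markers, 4 had a negative difference of responses (median -0.80, 1 at the unadjusted level) and 4 a higher level in VO RV than in sham RV (median 0.58, 1 at the unadjusted level). Between the sham ventricles, 2 of 3 endothelial markers were called as higher in the LV (median 0.42), and 3 of 3 erythroid markers were higher at the unadjusted level (median 0.68). The part of these other cells in the results was not tested.

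Subunits of 1 enzyme did not keep a fixed ratio of FPKM. These pairs were chosen after the values were seen and are given as a description. The paired transcripts differ in length, with 3583 bases for Ogdh and 2779 for Dlst, 2277 for Sdha and 980 for Sdhb. Dlat has 2600 bases and Pdhb 2000. The part of the libraries' gene-length slope in the ratios was not tested. The ratio of Ogdh to its partner Dlst was 0.101, 0.0749 and 0.163 in sham LV and 0.246, 0.280 and 0.417 in VO LV. It was 0.437, 0.282 and 0.201 in sham RV and 0.173, 0.257 and 0.0968 in VO RV, so the 3 sham LV libraries lay below the VO LV and sham RV libraries. The ratio of Sdha to Sdhb was 0.653 ± 0.034 in sham LV, 0.937 ± 0.081 in VO LV, 0.918 ± 0.083 in sham RV and 0.756 ± 0.13 in VO RV (SD, n = 3). Dlat to Pdhb was 0.375 ± 0.053, 0.502 ± 0.077, 0.521 ± 0.059 and 0.454 ± 0.051 in the same order.

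For succinyl-CoA ligase, the ratio of Suclg1 to Sucla2 was 1.54 ± 0.27 in sham LV and 1.09 ± 0.049 in VO LV, with the LV groups apart. Pcca to Pccb was 0.291, 0.261 and 0.382 in sham LV and 0.427, 0.422 and 0.488 in VO LV, while the RV groups were alike at 0.341 ± 0.010 in sham and 0.360 ± 0.037 in VO. Pck2 to Pc, the enzymes that take oxaloacetate from the cycle and put it back, was 6.64 ± 2.0 in sham LV and 3.14 ± 0.64 in VO LV, again with no overlap. Other pairs kept closer ratios, with Dld to Dlst between 0.673 and 0.847 and Mdh1 to Mdh2 between 1.15 and 1.36 in the 12 libraries. Transcripts were 2229 bases for Suclg1 and 2092 for Sucla2, 2253 for Pcca and 2074 for Pccb, and 1926 for Pck2 and 4494 for Pc. For the closer pairs they were 2610 (Dld) and 2779 (Dlst), and 1313 (Mdh1) and 1319 (Mdh2).

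**Figure D5:**
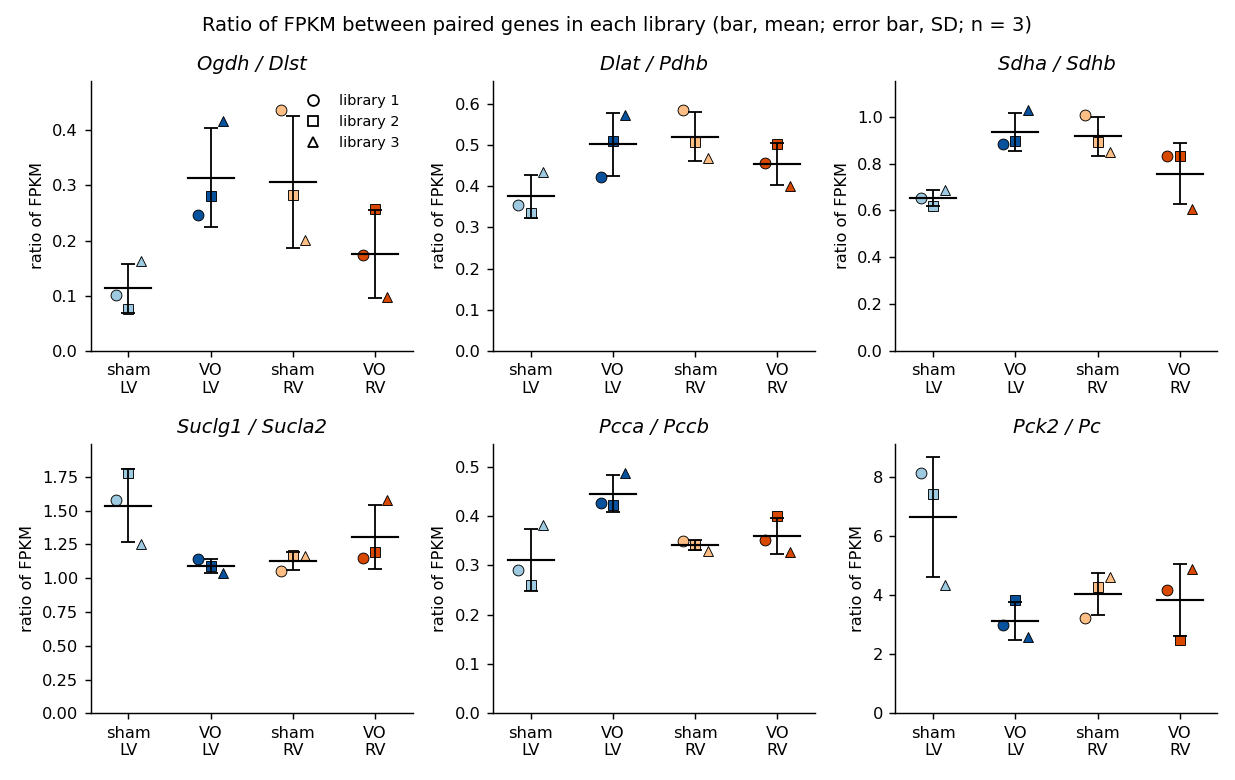
Ratio of FPKM between 2 genes on the y axis, from 0, in each library of the 4 groups on the x axis, with bars for the mean and error bars for the SD of 3 libraries. Sham LV stands below VO LV for Ogdh to Dlst (0.113 against 0.315), Sdha to Sdhb and Pcca to Pccb, and above it for Suclg1 to Sucla2 and Pck2 to Pc, while the LV groups overlap for Dlat to Pdhb.

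Other genes of the same pathways were read from fixed lists. Among 20 further genes of the citrate cycle and its shuttles that were tested, 7 were higher in VO LV than in sham LV at the unadjusted level and 0 lower, and in the RV 0 were higher and 1 lower. Of all genes, 9.27% were higher and 6.44% lower in the LV, and 1.85% and 3.06% in the RV. Among 14 of pyruvate use the counts were 6 and 0 in the LV and 0 and 1 in the RV, and among 22 of BCAA breakdown they were 5 and 0 in the LV and 0 and 2 in the RV. The lists' median log2 fold changes were 0.21, 0.25 and 0.21 in the LV and -0.11, -0.12 and -0.12 in the RV. In the sham comparison, Slc25a13 (log2 difference -1.46), Acadsb (-0.67) and Pdpr (-0.91) were called as lower in the LV. The count of all genes called there, 536, was 3 without sham LV library 1, 1 without sham LV library 2, 0 without sham RV library 1, 4 without sham RV library 2 and 5 without VO LV library 2. Below the call, Pdk2 and Ppm1k, the phosphatase that switches on the branched-chain dehydrogenase complex, had log2 fold changes of 0.95 and 1.00 in the LV, the dicarboxylate carrier Slc25a10 had 0.41, and Hsd17b10 and Klf15 had -0.52 and -0.49 in the RV. Between the VO ventricles, Me3 (0.43), Nnt (0.61), Pdp1 (0.52), Pdk1 (0.49) and Oxct1 (0.65) were higher in the LV at the unadjusted level and Bcat1, the cytosolic transaminase, was lower (-0.70).

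In the difference of responses, 6 of these genes were called, beside 4.19% of all genes, each with a higher value in the LV. These calls too were lost where 0 of all genes were called, without sham LV library 1 or 2, sham RV library 1 or VO LV library 2 or 3. They were Slc25a12 (log2 difference 0.68, SE 0.12) and Slc25a13 (2.42, SE 0.44), the aspartate-glutamate carriers, Pdk4, a kinase that switches off pyruvate dehydrogenase (2.30, SE 0.58), Pdpr, the regulatory subunit of the phosphatase that switches it on (1.53, SE 0.32), Acadsb of the isoleucine branch (0.94, SE 0.21) and Mmab of cobalamin use (1.02, SE 0.25). Pdk4 had 10.3, 3.96 and 9.5 FPKM in sham LV, 30.9, 31.7 and 41.1 in VO LV, 24.2, 20.6 and 12.6 in sham RV and 25.7, 19.9 and 8.86 in VO RV, with LV groups that did not overlap and RV groups that did. Slc25a13 had 8.15, 6.24 and 12.1 FPKM in sham LV and 24.0, 23.1 and 38.7 in VO LV, with the VO libraries higher.

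Neighbouring pathways did not all move in this way. The 60 tested rows of respiratory chain genes had a median log2 fold change of -0.10 in the LV, 0.01 in the RV and 0.24 between the sham ventricles, where the citrate cycle and BCAA genes had 0.30, -0.12 and -0.18. Their median length was 708 bases, and with the length trend of each library removed their medians were 0.01 in the LV and 0.09 between the sham ventricles. The 22 genes of fatty acid oxidation had medians of 0.20, -0.23 and -0.14, and 4 of them were called in the difference of responses, beside 4.19% of all genes. The 21 rows of glycolysis genes had medians of 0.18, -0.04 and -0.09, and 1 was called, as was 1 of the 60 respiratory chain rows. In the sham comparison 3 genes of fatty acid oxidation and 1 of glycolysis were called as lower in the LV, beside 3.85% of all genes called.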

How the data were processed

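RNA-seq of the LV and RV free wall gave 12 libraries in 4 groups, assigned by the labels. After discarding low-quality and adapter-containing reads, the authors aligned reads with HISAT2 2.0.5, counted them per gene with featureCounts 1.5.0-p3 and deposited FPKM (versions per the submitters' processing notes). Genome build, annotation and strand setting are not given in the sources used here, so reads of overlapping antisense genes cannot be told apart. Reads per gene were recovered by dividing FPKM times length by the step of each library (100% of values under 200 reads whole within 0.02); they give the depth and the reads tested with voom.

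Log2 values with a pseudocount of 0.5 were fitted with limma 3.58.1 in R 4.3.3 (lmFit, contrasts.fit, eBayes with trend) in 1 model without a replicate term. DESeq2, which the authors used, was not run, and the recovered reads were tested with voom. The procedure was run on simulated data. The simulated libraries had no slope on gene length and no difference in mixture of cells or Y-linked level. The run therefore cannot show how such differences affect the calls. Members and gene lists were chosen with earlier results of these data known. Genes named in full were those called in any comparison and, in each comparison and direction, the 4 with the smallest unadjusted p under 0.05 and a fold change over 1.3; of the further lists, those called and otherwise up to 3 a list and comparison past the unadjusted level. The subunit ratios, and the correlations of levels with the slope on gene length and with the cardiomyocyte markers (permutation tests in scipy, 72 relations), were chosen after the values were seen. Alternatives were FPKM without a size factor, quantile normalization, pseudocounts of 0.1 and 1, no filter on low values, a mean of at least 1 FPKM, separate fits, the replicate number as a block, array weights, voom on recovered reads, removal of the gene-length trend (lowess, span 0.3), covariates for Y-linked genes and atrial markers, and each library left out. Added after seeing the data were covariates for the cardiomyocyte markers and for the length slope, and 2 fits without 2 libraries each. A gene of the further citrate cycle list is not reported here and was left out of that list's counts.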

Additional observations from a re-analysis of the deposited data

Results flagged for a closer look

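The response to VO differed between the ventricles for 11 of the genes read here, by the limma test of the difference (LV response minus RV response, adjusted over all genes), beside 4.19% of all genes. No gene of the 13910 was called without sham LV library 1 or 2, sham RV library 1 or VO LV library 2 or 3, and 4 were without sham RV library 2. The log2 differences were 2.76 for Ogdh (1.80 in the LV, -0.96 in the RV), 1.3 for Cs (0.95 and -0.35), 1.00 for Dlat (0.63 and -0.37), 0.90 for Sdha (0.56 and -0.34) and -0.82 for Pck2 (-0.57 and 0.25). Of the further pathway genes they were 2.42 for Slc25a13 (1.65 and -0.77), 2.30 for Pdk4 (2.15 and -0.15), 1.53 for Pdpr (0.83 and -0.70), 1.02 for Mmab (0.72 and -0.31), 0.94 for Acadsb (0.70 and -0.24) and 0.68 for Slc25a12 (0.48 and -0.21). Groups of 3 libraries were not tested for a library that stands apart.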

How the results depend on the processing

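In the difference of responses, where 5 genes were called, 0 were called with all genes above 0 tested, with the replicate block, with the covariate for cardiomyocyte markers, with that for the length slope, without VO RV libraries 2 and 3 (which leaves 1 VO RV library, assumed to vary like the other groups), without sham LV library 2 and VO RV library 3, and with the Y-linked covariate. With each library left out the count ran from 0 to 14. In the LV response, where 0 were called, 1 (Cs) was called with a mean of at least 1 FPKM and without sham LV library 2 and VO RV library 3, 2 with voom and with the atrial covariate, 4 without VO RV libraries 2 and 3, 6 with array weights, and 0 to 6 with a library left out. In the sham comparison, where 0 were called, 2 were called with a mean of at least 1 FPKM, 3 with voom, 3 without VO RV libraries 2 and 3, 4 with quantile normalization, 4 with the Y-linked covariate, 5 with array weights, and 0 to 4 with a library left out. In the RV response and the VO comparison 0 were called under each alternative run. Over the alternatives, the count of all genes called ran from 0 to 1213 in the difference of responses (583 in the model reported, 1 with the replicate block), from 0 to 704 in the LV response (13) and from 0 to 1321 in the sham comparison (536).

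The members' median log2 value changed by more than the spread between libraries (SD 0.126) with the cardiomyocyte covariate, to 0.083 in the LV, 0.13 in the RV, -0.0068 between sham ventricles, -0.065 between VO ventricles and -0.068 for the difference of responses. Without VO RV libraries 2 and 3 it was 0.079 in the RV, 0.0066 between VO ventricles and 0.17 for the difference. With each library left out it ran from -0.25 to -0.064 in the RV, from 0.15 to 0.36 between VO ventricles and from 0.34 to 0.53 for the difference. Under the cardiomyocyte covariate the difference of responses turned negative for 6 of the 19 genes past the unadjusted level, Pdhb (-0.073), Dlst (-0.012), Idh3a (-0.088), Hibch (-0.077), Mccc1 (-0.19) and Dbt (-0.33). Of the 36 genes, the number above 0 went from 33 to 14 there, from 33 to 23 in the LV, from 3 to 30 in the RV, from 8 to 17 between sham and from 33 to 11 between VO ventricles. The cause was not tested in any of these. Libraries of the same number in different groups had correlations of deviations of -0.28 to 0.12, and the numbers were not taken as pairs. Y-linked genes were expressed or near 0 alike in the LV and RV library of 3 of 3 sham numbers and 2 of 3 VO numbers, so whether some share a heart is not known. The separate fit gives no difference of responses. Pc rests on as few as 113 reads in a library, and a value that misses the threshold does not show equal levels.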
